A study of Mus musculus with 15 samples.

Results

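The surface of the red cell carries a set of proteins that are known as blood-group antigens, together with adhesion and complement-protecting proteins that the cell needs while it matures. The genes examined were Rhag, Rhd, Kel, Icam4, Ermap, Aqp1, Cd59a, Cd44, Cd47 and Cd24a. They were chosen by name for these functions, with earlier results of these data known. All 10 were measured, of 19938 genes in the series. In the red cell membrane the Rh proteins sit with RHAG, ICAM4, CD47 and glycophorins around the anion exchanger band 3, which the membrane skeleton anchors. Kell is an endopeptidase held by a disulphide bond to XK, and AQP1 is the water channel that carries the Colton antigens. CD59 and CD24 have no membrane span of their own and are held by a glycosylphosphatidylinositol (GPI) anchor. CD59 stops the last step of complement attack, the assembly of the pore.

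Cells came from E14.5 fetal livers of FVB/NJ mice and were measured on 15 Affymetrix MoGene 1.0 ST arrays in 4 groups. There were 3 arrays of Klf3 knockout (KO) TER119 positive cells and 4 of wild-type (WT) TER119 positive cells, 4 arrays of Klf3 KO TER119 negative cells and 4 of WT TER119 negative cells. TER119 is an antigen associated with glycophorin A that appears as red cell precursors mature; positive cells were selected with magnetic beads against it, and negative cells were obtained by depletion. KLF3 is a zinc finger repressor that binds CACCC boxes, the sites that the erythroid activator KLF1 also uses. The labels do not give the deleted part of Klf3, or whether an array holds 1 embryo or a pool. The p-values set a difference between groups against the spread of arrays within groups, pooled over all 4 groups. Some of that spread may be technical.

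Values are log2 expression as deposited, so a difference of 1 is a doubling, and levels are compared within a gene and never between genes. The Klf3 probe set did not separate the genotypes: it lay between 10.34 and 10.55 in KO against 9.94 and 10.50 in WT TER119 positive arrays, and between 8.02 and 8.74 in KO against 7.94 and 8.80 in WT TER119 negative arrays. Because a probe set outside the deleted part would not show the deletion, the genotype is taken from the labels alone, as the term KO-labelled says. The 8 measured erythroid markers had a mean of 11.55 to 11.69 in the 7 TER119 positive arrays and 7.11 to 8.23 in the 8 TER119 negative arrays, but the 17 hepatocyte-lineage markers were also higher in the positive fraction, at 11.36 to 12.01 against 5.94 to 8.59. Neutrophil precursor markers ran the other way, at 4.98 to 5.68 in positive and 10.05 to 10.81 in negative arrays. In bulk samples fewer cells of a type and less RNA per cell cannot be told apart. Of the TER119 negative arrays, WT replicates 2 and 4 and KO-labelled replicate 4 stood apart on the first principal component, and the comparison of genotypes in that fraction was repeated without them. By Xist and Y-linked genes there were 1 male and 3 female KO-labelled against 4 male and 0 female WT TER119 negative arrays.

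Promoter sequences are shown because KLF3 binds CACCC boxes and because several of the genes moved together between the fractions. RefSeq promoter windows (GRCm38.p6), which surround a listed start, were at hand for 9 of the 10 genes, all but Cd24a. The window of Cd59a, the gene among them that differed between the genotypes, holds 3 matches to CACCC or its reverse complement GGGTG. The 250 bases before its start (chr2:104095551-104095800, plus strand) are printed with those matches in capitals.
Cd59a: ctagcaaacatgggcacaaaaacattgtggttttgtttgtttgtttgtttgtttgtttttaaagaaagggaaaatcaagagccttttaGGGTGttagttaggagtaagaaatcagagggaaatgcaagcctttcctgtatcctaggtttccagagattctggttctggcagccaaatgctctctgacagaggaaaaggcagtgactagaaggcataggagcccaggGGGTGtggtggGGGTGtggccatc
The matches begin at positions -162, -24 and -13 counted from the start, and the last 2 of them are also matches to the longer form CCNCNCCC. Over 27025 genes with a window, 59.8% held CACCC on either strand and 28.1% held it at least 2 times, so the presence of the motif is common. Aqp1 also had 3 matches, and among the complement inhibitors described below Cd55 had 4, Cr1l 1 and Cd59b 0. Of the 9 genes with a window, 8 held CACCC, all but Cd44. The longer form CCNCNCCC is common too, with 51.9% of all genes with a window holding it and 32.8% at least 2 times. Of the 9 it was found in 5, Cd44 among them.

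A match to GATAA, the core that GATA factors bind, or to its reverse complement TTATC was found in 28.4% of all windows. It was found in 6 of the 9, namely Rhag, Rhd, Icam4, Kel, Ermap and Cd44. The first 5, which are Rh complex, Kell and Scianna genes, were higher in TER119 positive cells. So were Aqp1 and Cd59a, which held 0 matches, while Cd44 held a match and was lower there. Cd47, also of the Rh complex, held 0 matches. The match nearest to the start of each of the first 5 is shown in capitals within 29 bases, read on the strand of the gene.
Rhag: agtcctctgctcTTATCaacactatacag
Rhd: ccggcagcctgaGATAAgacctttggcgg
Icam4: cagggtgccttcTTATCtcctgcggccag
Kel: tgttccctcactGATAAgcaggctccacc
Ermap: tgaacgctcgctTTATCaggggtgggcag
These lie at chr17:40811106-40811134 and chr4:134864482-134864510 on the plus strand for Rhag and Rhd, at chr9:21029377-21029405 on the plus strand for Icam4, and on the minus strand at chr6:41704327-41704355 for Kel and chr4:119190046-119190074 for Ermap. They begin between positions -67 (Ermap) and -18 (Kel). The Icam4 and Ermap stretches also hold a GGGTG match, which begins at -53 and at -60. A match is a run of letters and says nothing of whether a factor binds there.

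The first comparison was between the genotypes within TER119 positive cells. Cd59a was the gene that rose. KO-labelled arrays read 11.24, 11.13 and 11.10 for it, against 9.80, 9.71, 9.95 and 9.68 in WT arrays. Every KO-labelled value lay above every WT value, and the gap between the groups was wider than the range within either. KO-labelled cells averaged 11.16 ± 0.07 (SD, n = 3) and WT cells 9.78 ± 0.12 (SD, n = 4), a 2.59-fold difference (log2 1.37, SE 0.23, limma adjusted p = 0.00414). Of the 10 genes 1 passed the threshold of 0.05 over all genes, where 1.02% of all genes did, and 0.903% as higher in KO-labelled cells. The median difference was 0.05, against -0.01 over all genes.

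**Figure D1:**
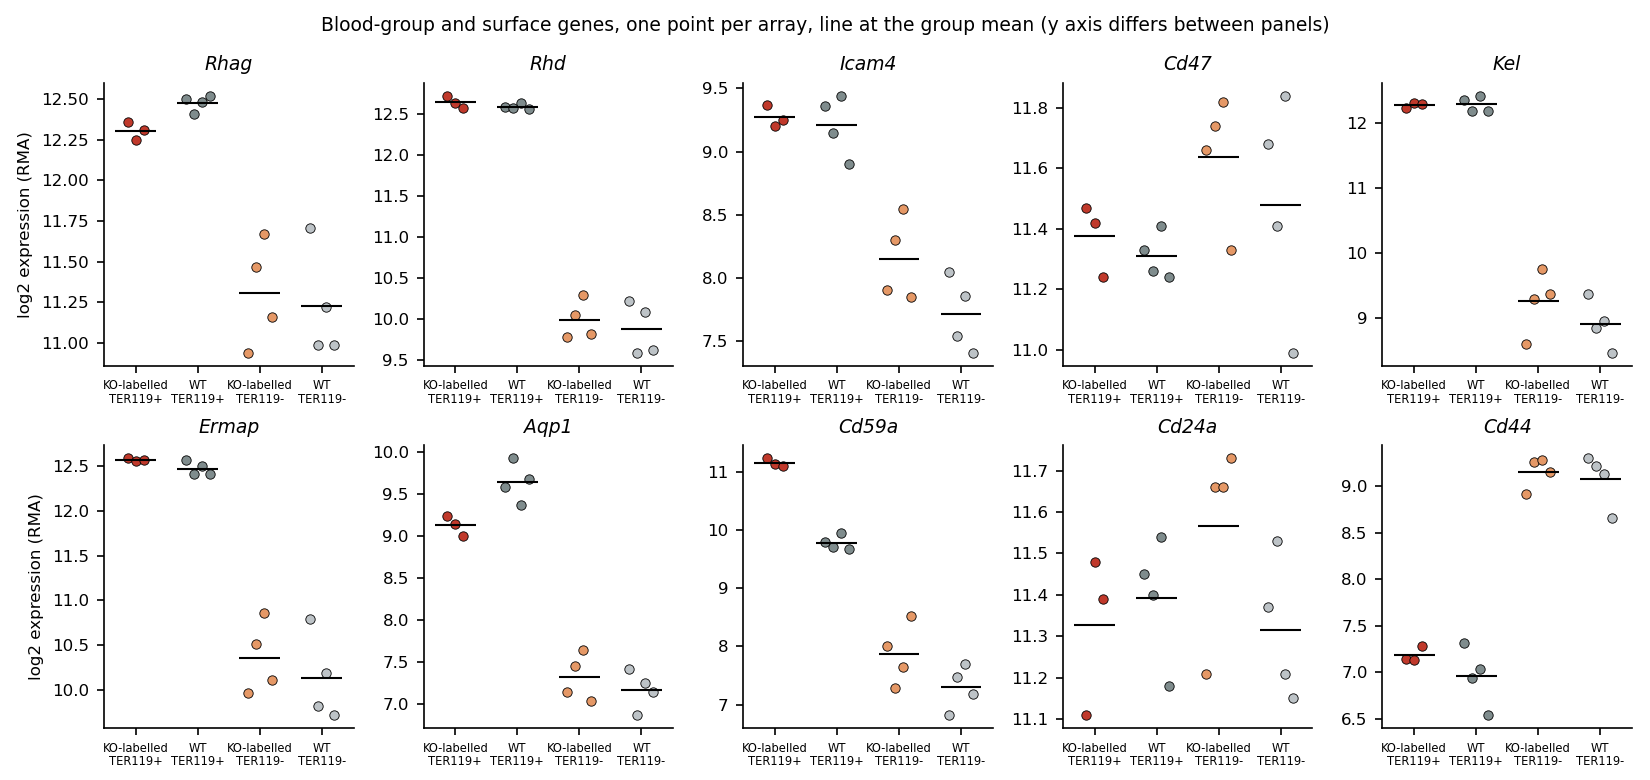
Log2 expression of the 10 genes, a panel per gene with its own y axis, with 1 point per array and a line at the group mean for KO-labelled and WT TER119 positive and KO-labelled and WT TER119 negative cells. Cd59a is higher in the KO-labelled than in the WT TER119 positive arrays, and Rhag, Rhd, Icam4, Kel, Ermap, Aqp1 and Cd59a are higher, and Cd44 lower, in TER119 positive than in negative arrays.

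Aqp1 was the gene with the next smallest p, and it did not pass. Its values were 9.24, 9.15 and 9.0 in KO-labelled and 9.58, 9.93, 9.37 and 9.68 in WT TER119 positive arrays. All 3 KO-labelled values were below all 4 WT values. The difference was -0.51 (SE 0.16, 95% interval -0.86 to -0.16), with an adjusted p = 0.346 by limma. Rhag, the scaffold of the Rh complex, also had groups that did not overlap, with 12.36, 12.25 and 12.31 in KO-labelled against 12.50, 12.41, 12.48 and 12.52 in WT arrays. The distance was small (-0.17, SE 0.17, adjusted p = 1). That SE rests on the spread pooled over all 4 groups. The SD of Rhag was 0.06 in KO-labelled and 0.05 in WT TER119 positive arrays. In TER119 negative arrays it was 0.32 in KO-labelled and 0.34 in WT. In all, 3 of the 10 genes had groups free of overlap, as had 10.1% of all genes.

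The other Rh complex genes and the Kell and Scianna genes lay close to 0 in this comparison. Rhd, the mouse Rh protein gene, differed by 0.05 (95% interval -0.28 to 0.38), and Icam4, which encodes the Landsteiner-Wiener adhesion protein, by 0.06 (-0.34 to 0.45). Cd47, whose product binds SIRPA on macrophages and holds back phagocytosis, differed by 0.07 (-0.28 to 0.42). Kel differed by -0.01 (-0.47 to 0.45) and Ermap, the Scianna gene of the butyrophilin-like family, by 0.10 (-0.37 to 0.57). Cd24a, which encodes the heat-stable antigen, differed by -0.07 (-0.37 to 0.23), and Cd44, which encodes the receptor for hyaluronan, by 0.23 (-0.13 to 0.59). These intervals leave room for changes of up to about the size of the Aqp1 difference, so the genes are not shown to be equal in the genotypes. Their widths follow the spread pooled over all 4 groups, not that of the TER119 positive arrays alone. For Kel the SDs (KO-labelled, WT) were 0.04 and 0.12 in TER119 positive but 0.48 and 0.37 in TER119 negative arrays. For Cd24a they were closer, at 0.19 and 0.15 against 0.24 and 0.17. In a simulation on arrays with the spread of these, 30% of genes changed by 0.5 and 90% of genes changed by 1 were recovered in this comparison.

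**Figure D2:**
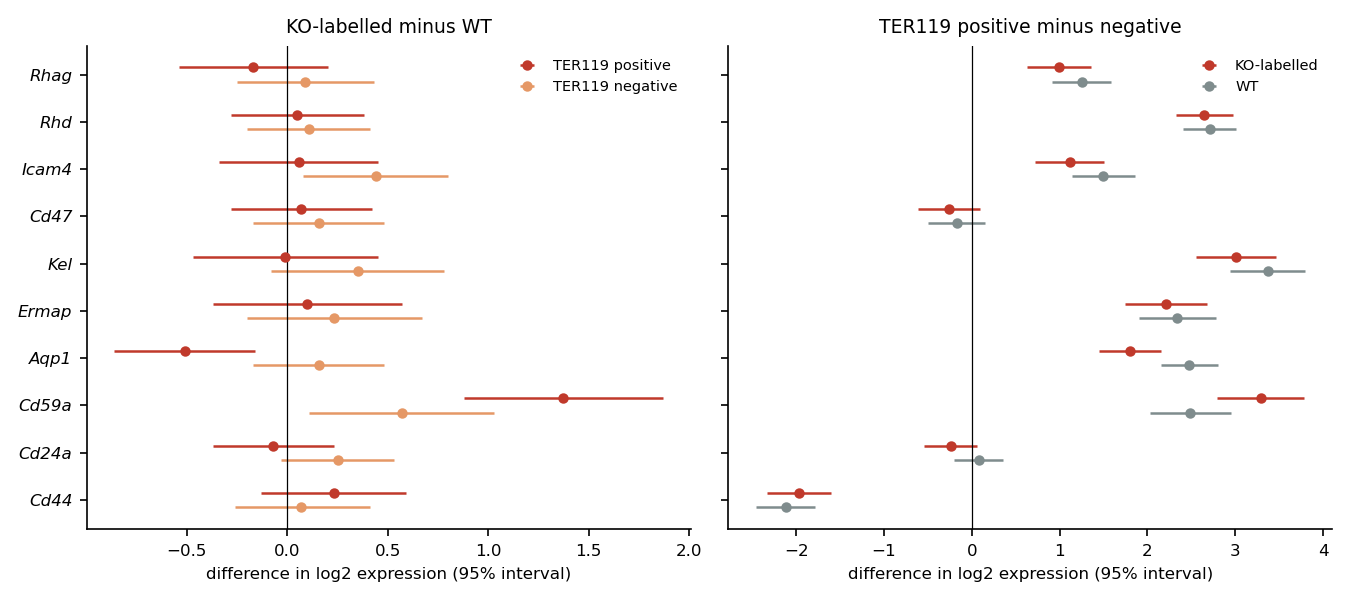
Differences in log2 expression for the 10 genes with 95% intervals from the model, on the left KO-labelled minus WT in TER119 positive and TER119 negative cells, on the right TER119 positive minus negative in KO-labelled and WT cells. The Cd59a interval in TER119 positive cells runs from 0.88 to 1.87 and the Aqp1 interval there lies below 0.

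CD59 is one of several membrane proteins that hold back complement, and other regulators were examined as a list. Of 8 measured complement regulators besides Cd59a, 2 rose in KO-labelled TER119 positive cells, 0 fell and 6 did not pass (median 0.12). Cd59b, the second mouse CD59 gene, stood at 8.20, 8.11 and 7.86 in KO-labelled and at 7.06, 6.98, 6.49 and 6.94 in WT arrays. The groups were fully apart, with a 2.28-fold difference (log2 1.19, SE 0.16, adjusted p = 0.000301). Cd55 encodes decay-accelerating factor, a further GPI-anchored inhibitor, which acts early in complement activation. It stood at 8.06, 8.36 and 8.52 in KO-labelled against 7.31, 7.37, 7.52 and 7.88 in WT arrays, a difference of 0.79 (SE 0.15, adjusted p = 0.0103). Again no KO-labelled value reached down to the WT values. Cr1l encodes Crry, the inhibitor on which mouse red cells mainly rely, and it was named after its values were seen. It lay at 8.54, 8.52 and 8.40 in KO-labelled and at 8.48, 8.50, 8.48 and 8.40 in WT arrays (difference 0.02, 95% interval -0.16 to 0.21).

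**Figure D3:**
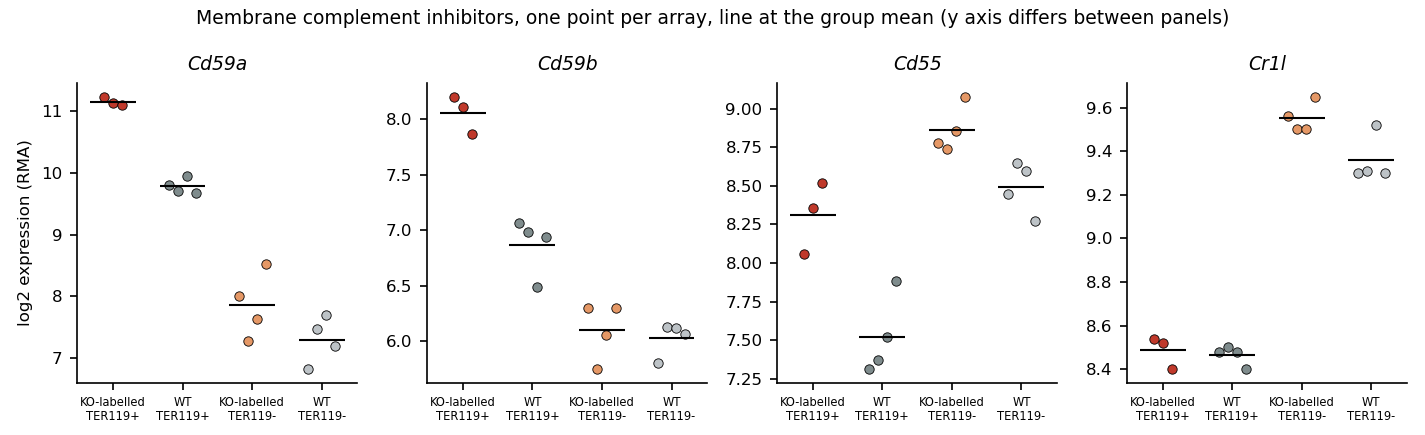
Log2 expression of the membrane complement inhibitors Cd59a, Cd59b, Cd55 and Cr1l, a panel per gene with its own y axis, with 1 point per array and a line at the group mean for the 4 groups. In TER119 positive cells the KO-labelled points of Cd59a, Cd59b and Cd55 all lie above the WT points, while those of Cr1l overlap with WT.

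The rise of Cd55 rested on few arrays: without KO-labelled replicate 2 or 3 it did not pass (highest adjusted p = 0.0985, difference not under 0.69). Cd59a and Cd59b are related genes, and whether the probes of either also bind transcripts of the other was not tested; in WT cells Cd59a was higher by 2.49 and Cd59b by 0.83 in TER119 positive than in negative cells. On the same arrays the mean of 7 megakaryocyte markers was lower, at 8.71 to 9.10 in KO-labelled against 9.56 to 9.86 in WT. All 7 differences were below 0 (-0.98 to -0.71). None of the 7 passed by limma, though 5 had an unadjusted p under 0.05. The pooled spread behind these p-values takes in the TER119 negative arrays, where this mean varied more. Its SD was 0.80 in KO-labelled and 0.54 in WT TER119 negative arrays, against 0.20 and 0.14 in TER119 positive arrays. Of 12 macrophage markers 1 fell, Vsig4 (-1.21, adjusted p = 0.000491), and their mean was 7.78 to 7.97 in KO-labelled against 7.98 to 8.23 in WT. The mean of 10 endothelial markers was 7.05 to 7.42 against 6.84 to 7.89, and that of 12 neutrophil precursor markers was 5.19 to 5.68 against 4.98 to 5.38. The part of such cells in the Cd59a, Cd59b and Cd55 results was not tested.

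Cd59a lies next to Cd59b on chromosome 2 in the RefSeq gene table. The nearest 2 measured genes on each side of every gene gave 40 neighbours. Of these, 3 passed in KO-labelled TER119 positive cells, where 1.02% of all genes did. These were Cd59b, then Syf2, a splicing factor gene beside Rhd (0.58, SE 0.11, adjusted p = 0.0124), and F930017D23Rik beside Cd24a (0.69, SE 0.14, adjusted p = 0.0187). The remaining neighbours of Cd59a did not pass: Fbxo3 differed by 0.32 (adjusted p = 0.894), A930018P22Rik by 0.17 (adjusted p = 1) and D430041D05Rik by -0.15 (adjusted p = 1).

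Other genes of red cell surface biology mostly did not pass between the genotypes in TER119 positive cells. Among 25 measured carriers of other blood groups, 1 rose, which was Cd55, 0 fell and 24 did not pass (median 0.02). Without the 3 TER119 negative arrays that stood apart, 4 of these carriers passed. Leaving those arrays out changes the pooled spread but not the differences within TER119 positive cells. With the mean of the hepatocyte-lineage markers as a covariate 4 carriers passed, and with array weights 3. Cd36 had the lowest difference (-0.69, adjusted p = 0.149). Slc4a1, the band 3 gene, differed by 0.07 (adjusted p = 1) and Gypc, the glycophorin C gene, by 0.06 (adjusted p = 1). None of 6 partners of the Rh and band 3 complex, 7 blood-group glycosyltransferases, 16 ligands and receptors of the surface proteins or 27 genes of GPI anchor synthesis passed, with medians of -0.05, 0.00, -0.09 and 0.00. By limma's unadjusted p under 0.05 there were 0, 0, 2 and 1 of them, beside 5 of the 25 carriers, 4 of the 8 complement regulators, 3 of the 17 family relatives and 1062 of all 19938 genes. In the list of 17 family relatives 1 rose, which was Cd59b.

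The second comparison was between the genotypes within TER119 negative cells. Here none of the 10 genes passed by limma; at an unadjusted p under 0.05 there were 2, Cd59a and Icam4, and 1508 of all genes. Over all genes 0.0853% passed. Cd59a stood at 8.01, 7.28, 7.64 and 8.53 in KO-labelled and at 6.82, 7.47, 7.70 and 7.19 in WT arrays. The groups overlapped, and the difference was 0.57 (SE 0.22, adjusted p = 0.644). Icam4 stood at 7.91, 8.30, 8.55 and 7.85 in KO-labelled and at 8.05, 7.54, 7.86 and 7.41 in WT arrays, a difference of 0.44 (SE 0.17, adjusted p = 0.653). The groups overlapped here too, as they did for all 10 genes, while they did not for 2.63% of all genes. All 10 differences were above 0, from 0.07 for Cd44 to 0.57 for Cd59a, with a median of 0.20 against -0.02 over all genes. Cd59b differed by 0.07 (adjusted p = 0.876) and Cd55 by 0.37 (adjusted p = 0.644). No gene of the other surface lists passed here; the median was 0.46 for the 6 partners of the Rh and band 3 complex and 0.14 for the 25 carriers. Without the 3 arrays that stood apart these medians were 0.16 and 0.01, and with the mean of the hepatocyte list as a covariate 0.08 and 0.05. Beside them the 8 erythroid markers had a median of 0.43 and the 17 hepatocyte-lineage markers of -0.86.

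That common direction did not remain without the 3 arrays that stood apart. Then 5 of the 10 differences were above 0 and the median was 0.02. With the hepatocyte-list mean as a covariate 5 were above 0 and the median was -0.02. Icam4 was 0.30 (SE 0.18, adjusted p = 1) without the arrays. Cd59a was 0.39 (SE 0.23, adjusted p = 1) without the arrays and 0.87 (SE 0.19, adjusted p = 0.17) with the covariate, and with sex as a factor it was 0.44 (SE 0.27).

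Among the TER119 negative arrays 6 of the surface genes varied together. Rhag, Rhd, Icam4, Kel, Ermap and Aqp1 had pairwise Pearson correlations of 0.66 to 0.98 (median 0.87, 15 pairs) over these 8 arrays, which include both genotypes and share the scale of each array. KO-labelled replicate 3 was among the 2 highest arrays for all 6 genes and WT replicate 1 for 4 of them. WT replicates 2 and 4 were among the 3 lowest for all 6, and KO-labelled replicate 1 for 4. The mean of the erythroid markers was 7.53, 7.89, 8.23 and 7.79 in KO-labelled replicates 1 to 4, against 7.70, 7.30, 7.58 and 7.11 in WT replicates 1 to 4. KO-labelled replicate 3 was the highest and WT replicates 4 and 2 the lowest, as for the 6 genes, but WT replicate 1 was only the fourth. The mean of the hepatocyte-lineage markers was 7.00, 6.25, 5.94 and 7.54 in KO-labelled replicates 1 to 4, against 6.13, 7.40, 7.90 and 8.59 in WT replicates 1 to 4. It was lowest in KO-labelled replicate 3 and highest in WT replicate 4, and WT replicate 3, which was among the 3 lowest for none of the 6 genes, was second highest. Cd59a ranked differently: KO-labelled replicates 4 and 1 were highest, and WT replicate 1 was lowest. Its correlations with the 6 genes were -0.42 to 0.05. The shared variation was not particular to the 6 genes, since Cd47 correlated with them at 0.54 to 0.79. For Cd44 these values were 0.38 to 0.82, and for Cd24a 0.20 to 0.77. Over the 7 TER119 positive arrays the 6 genes had correlations between -0.79 and 0.74 (median 0.05).

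**Figure D4:**
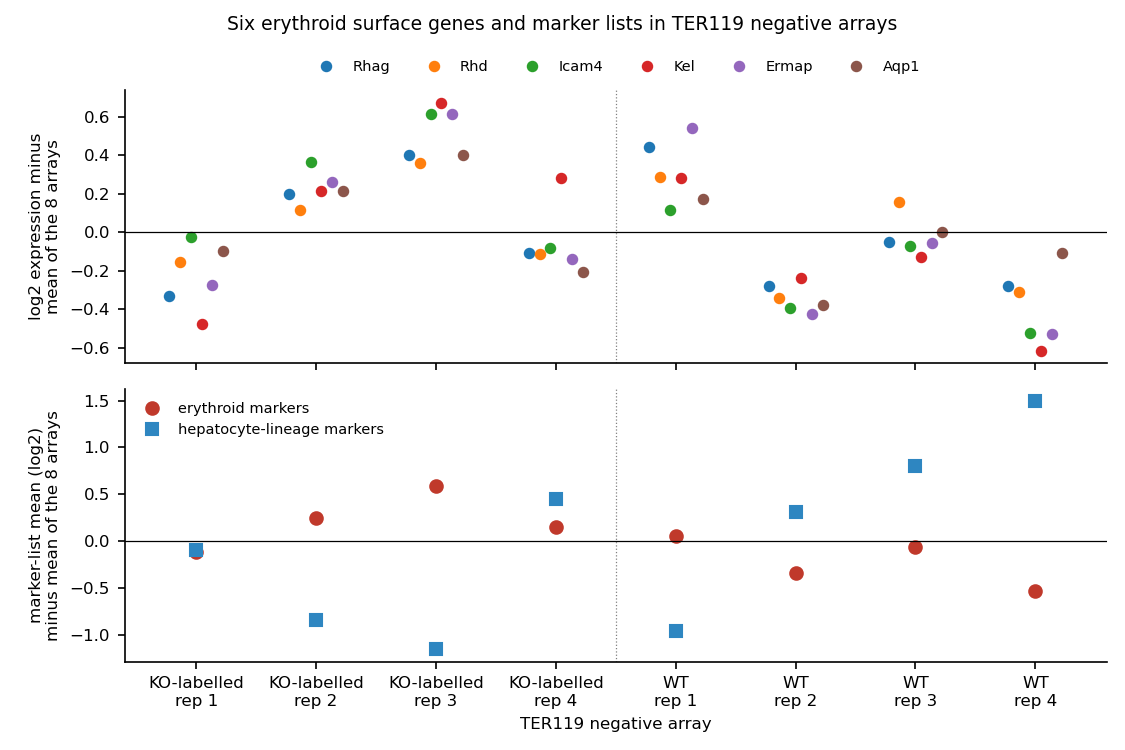
The 8 TER119 negative arrays, KO-labelled left of the dotted line and WT right of it. The upper panel gives log2 expression of Rhag, Rhd, Icam4, Kel, Ermap and Aqp1 minus the mean of the 8 arrays, and the lower panel the same for the means of the erythroid and hepatocyte-lineage marker lists. KO-labelled replicate 3 is high for all 6 genes and low for hepatocyte-lineage markers, and WT replicate 4 is the reverse.

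The difference between these effects, KO-labelled minus WT in TER119 positive cells less the same in TER119 negative cells, passed for none of the 10 genes by limma, and for 0.436% of all genes. At an unadjusted p under 0.05 there were 2 of the 10 and 852 of all genes. Cd59a gave 0.80 (SE 0.32, adjusted p = 0.999), so its rise is not shown to be particular to TER119 positive cells. Aqp1 gave -0.67 (SE 0.22, adjusted p = 0.716). Cd59b did pass (1.12, SE 0.21, adjusted p = 0.0248), with no call in 7 of 25 alternatives (difference 0.96 to 1.24, highest adjusted p = 0.119). Besides the replicate block and the omission of the 3 arrays that stood apart, these were the settings without KO-labelled TER119 positive replicate 1 or 2, KO-labelled TER119 negative replicate 3 or WT TER119 negative replicate 2 or 3.

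The third comparison set TER119 positive against TER119 negative cells and showed how the surface genes are spread over these fractions. In KO-labelled cells 7 of the 10 genes were higher in TER119 positive cells, 1 was lower and 2 did not pass, where 49% of all genes passed, 22.6% as higher and 26.5% as lower. The counts in WT cells were 7, 1 and 2, where 52.6% of all genes passed, 23.5% as higher and 29.1% as lower. The fractions did not overlap for 8 of the 10 genes in either genotype, while they did not for 56.1% of all genes in KO-labelled and 45.6% in WT cells. The fractions differed in more than red cell stage, since all 17 hepatocyte-lineage and 11 of 12 macrophage markers were higher in WT TER119 positive cells; the part of those cells was not tested.

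Kel had the widest difference of the 10 genes in WT cells. It stood at 12.34, 12.18, 12.41 and 12.18 in WT TER119 positive and at 9.37, 8.85, 8.96 and 8.47 in WT TER119 negative arrays, a 10.3-fold difference (log2 3.37, SE 0.20, adjusted p = 5.11e-10). In KO-labelled cells the difference was 3.01 (SE 0.22, adjusted p = 5.76e-09), and there Cd59a had the widest one. Rhd came next in WT cells, with 12.59 ± 0.03 (SD, n = 4) in TER119 positive and 9.88 ± 0.32 (n = 4) in TER119 negative cells (2.71, SE 0.14, adjusted p = 1.08e-10). Its partner Rhag moved less, with 12.48 ± 0.05 against 11.23 ± 0.34 (1.25, SE 0.16, adjusted p = 4.71e-06). Icam4 stood at 9.21 ± 0.24 against 7.71 ± 0.30 (1.5, SE 0.17, adjusted p = 1.24e-06). Ermap stood at 12.47 ± 0.08 against 10.13 ± 0.48 (2.34, SE 0.21, adjusted p = 5.62e-08). For each of these genes the fractions did not overlap in either genotype.

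Aqp1 and Cd59a were also higher in TER119 positive cells. Aqp1 was 1.80 (SE 0.16, adjusted p = 9.5e-08) higher in KO-labelled and 2.47 (SE 0.15, adjusted p = 7.47e-10) higher in WT cells. Cd59a was 3.29 (SE 0.23, adjusted p = 4.65e-09) higher in KO-labelled and 2.49 (SE 0.22, adjusted p = 4.83e-08) higher in WT cells. As given above, the difference between the genotypes in these steps did not pass for either gene. The order of the 4 groups for Cd59a was KO-labelled TER119 positive, WT TER119 positive, KO-labelled TER119 negative and WT TER119 negative, of which the last pair overlapped. For Aqp1 it was WT TER119 positive, KO-labelled TER119 positive, KO-labelled TER119 negative and WT TER119 negative, with the last pair again overlapping.

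Cd44 ran the other way. It is used in the mouse to stage erythroblasts, whose surface level of the protein falls as they mature, and many other blood cells carry it too. It stood at 7.31, 6.94, 7.03 and 6.54 in WT TER119 positive and at 9.30, 9.22, 9.13 and 8.66 in WT TER119 negative arrays. All positive values were below all negative ones (-2.12, SE 0.16, adjusted p = 7.38e-09). In KO-labelled cells the difference was -1.97 (SE 0.17, adjusted p = 5.28e-08). Cd24a did not pass in either genotype, with 11.39 ± 0.15 (SD, n = 4) in TER119 positive and 11.31 ± 0.17 (n = 4) in TER119 negative WT cells.

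For Cd47 the answer depended on the probe set. The probe set of higher mean, which the rule kept, is annotated to a lone cDNA entry and the other to the RefSeq transcript. The kept probe set had 11.31 ± 0.08 in TER119 positive and 11.48 ± 0.37 in TER119 negative WT cells (SD, n = 4 each; -0.17, SE 0.15, adjusted p = 0.368). The other one had 11.53 ± 0.02 and 10.82 ± 0.15 in the same cells. By that probe set TER119 positive cells were 0.57 higher (SE 0.09, adjusted p = 9.53e-05 over all 35399 probe sets) in KO-labelled and 0.71 higher (SE 0.08, adjusted p = 4.71e-06) in WT mice. Without the 3 arrays that stood apart the kept probe set passed in the opposite direction, with -0.36 (adjusted p = 0.00474) in KO-labelled and -0.45 (SE 0.10, adjusted p = 0.0016) in WT cells. It also passed with array weights in both genotypes, and in WT cells without WT TER119 negative replicate 4. No direction between the fractions can therefore be given for Cd47. Neither probe set separated the genotypes: in TER119 positive cells they differed by 0.07 and 0.04, and in TER119 negative cells by 0.16 and 0.18.

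**Figure D5:**
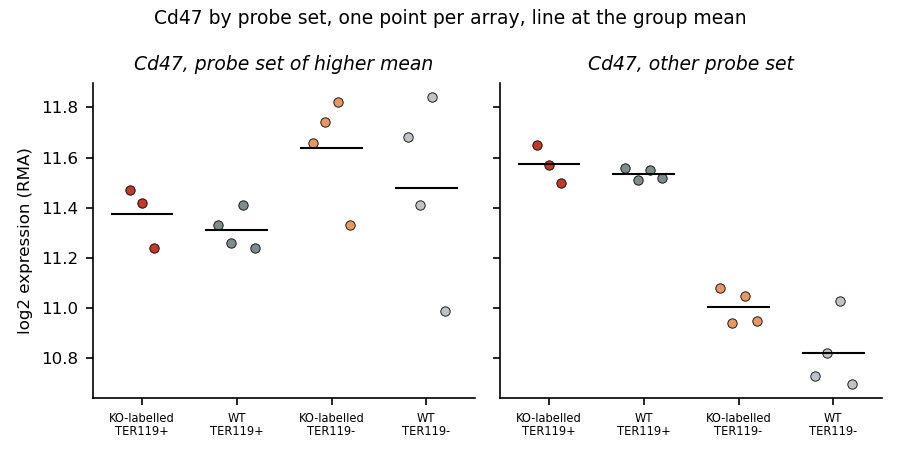
Log2 expression by the 2 Cd47 probe sets, with 1 point per array and a line at the group mean for the 4 groups, on a shared y axis. The probe set of higher mean (left) overlaps between the fractions, and in the other (right) every TER119 positive array lies above every TER119 negative array.

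Other lists of surface genes were spread over the fractions in different ways in WT cells, as a description without a test between lists. Over all genes 23.5% were higher and 29.1% lower in TER119 positive cells. Of 25 carriers of other blood groups 17 were higher in TER119 positive cells and 5 were lower (median 1.65, against -0.09 over all genes). Slc4a1 was 5.33 higher, Gypc 3.89 and Cd36, a fatty acid receptor gene, 3.48. All 6 measured partners of the Rh and band 3 complex were higher (median 3.41). Epb42, the gene of the band 3 linker protein 4.2, was 5.24 and Sptb, the gene of beta spectrin, 3.72 higher. Glycosyltransferases that build carbohydrate blood groups were mixed, with 2 of 7 higher and 2 lower: Gcnt2, which makes the I antigen, was lower (-0.76), and B3galnt1, which makes globoside, and Gbgt1, the Forssman synthase gene, were higher (0.58 and 0.51).

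Of 16 ligands and receptors of the surface proteins 4 were higher and 5 lower in WT TER119 positive cells. These counts are close to the shares over all genes, 23.5% higher and 29.1% lower. Vcam1, which encodes the integrin ligand of island macrophages, was 3.85 higher and Itgav, the gene of an integrin chain that binds ICAM4, 1.14 higher. Has2, a hyaluronan synthase gene, was lower (-1.73), with low levels of 4.15 in TER119 positive and 5.88 in negative cells. Of 27 genes of GPI anchor synthesis 7 were higher and 12 lower. Pigq and Gpaa1, which act in the first and in the attachment step, were 2.68 and 1.40 higher, and Pigh, of the same first enzyme as Pigq, was lower (-1.35). Among 8 complement regulators 4 were higher and 2 lower: Vtn and Clu, whose products are secreted into plasma, were 5.27 and 1.25 higher, and Cd55 was lower (-0.97). Of 17 family relatives 9 were higher and 3 lower, led by the water channel genes Aqp3 (1.94) and Aqp9 (1.55) and by Rhbg (1.57), an Rh glycoprotein gene of other tissues such as kidney and liver.

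The genes whose pattern was most like that of each surface gene, by Pearson correlation over the 15 arrays, were mostly genes that differ between the fractions in the same way. Rhd was closest to Slc25a37, Dhrs11 and Trim10 (0.998 each), Kel to Arhgef12 (0.997), Slc40a1 (0.996) and Epb42 (0.996), and Ermap to Slc22a23 (0.997), Ank1 (0.996) and Ptdss2 (0.996). Rhag was closest to Slc22a23 (0.986), Tnfaip2 (0.984) and Fnip2 (0.984), and Icam4 to Add2 (0.991), Ssbp3 (0.990) and Fads3 (0.989). Cd44 was closest to Ppid, Bclaf1 and Alkbh8 (0.993 each). The points share the step between the fractions, which enters every such value.

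Cd59a and Aqp1 had other companions. Cd59a was closest to Acot11 (0.982), Dnase1l1 (0.976) and Tspo (0.975). In TER119 positive cells the differences between KO-labelled and WT were 0.69 for Acot11, an acyl-CoA thioesterase gene, 0.29 for Dnase1l1 and 0.86 for Tspo, which encodes a protein of the outer mitochondrial membrane. These are a description, since likeness to Cd59a over the same arrays favours genes that share its difference between the genotypes. Aqp1 was closest to Prxl2a (0.990), Prnp (0.989) and Ptpn23 (0.988), chosen in the same way, with differences in TER119 positive cells of -0.29, -0.58 and -0.33. Prnp is the prion protein gene and itself a blood-group carrier. Correlations were lower for Cd47, at most 0.945 (Fbxl20, then Trappc11 with 0.938 and Rad54l2 with 0.937), and for Cd24a, at most 0.802 (Ranbp2, then Mucl3 with 0.781 and Kif11 with 0.745).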

How the data were processed

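The deposited values are log2 expression per probe set of 15 arrays, made by the authors with RMA and Partek per the submitters' processing notes; versions and the grouping of arrays in that step are unknown here. Such processing equalises the arrays' distributions and compresses differences between dim signals, and no detection calls were used. The number of arrays limits the precision. No arrays within a group were identical (smallest SD of a difference 0.259).

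Of 35399 probe sets, 21789 had 1 gene symbol in the platform's gene table, 1621 had several and 11989 are unnamed here. The probe set of highest mean was kept per gene, giving 19938 genes. Cd47 had 2 probe sets, and the other 9 genes had 1 each. All arrays were fitted together in limma 3.58.1 (R 4.3.3), with 11 residual and 4.91 prior degrees of freedom and 1 mean for each of the 4 groups, and p-values are 2-sided, adjusted by Benjamini-Hochberg over all genes, with a threshold of 0.05. The code was tested on simulated data. The labels name no batch.

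The genes and lists were chosen with earlier results of these data known. Genes named besides the 10 were those of the lists that passed in a KO comparison, up to 3 per list with the largest difference between the fractions, the nearest neighbours and the most similar genes. Alternatives covered scaling, dim genes, probe sets, arrays entered, array weights, trended eBayes, replicate numbers, sex, a hepatocyte-list covariate and each array left out. Same-numbered KO-labelled and WT arrays of a fraction did not deviate together in every pair (correlations -0.38 to 0.65), so the numbers were not taken as pairs. Pairing of the fractions by liver is not given in the labels and was not examined. By sex genes, WT TER119 positive arrays were 2 male and 2 female, and WT TER119 negative arrays 4 male and 0 female.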

Additional observations from a re-analysis of the deposited data

Results flagged for a closer look

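In the KO-labelled TER119 negative group, Cd24a had replicate 1 at 11.21 while the other 3 arrays lay at 11.66, 11.66 and 11.73, so that the gap to the nearest array was 0.867 of the whole range of the group. This was 1 of 30 groups of 4 arrays examined, and chance alone sets apart about 5% of such groups. Without that array, and with array weights, Cd24a passed as lower in TER119 positive than in TER119 negative KO-labelled cells (lowest adjusted p = 0.0361).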

How the results depend on the processing

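Over the alternatives, the 17 differences of the 10 genes that passed kept their direction in 314 of 314 refits and their call in 313. The exception was Cd59a in TER119 positive cells with the replicate block, where the difference was 1.34 (SE 0.27, adjusted p = 0.0555), so that 0 in place of 1 of the 10 genes passed there; other counts of the 10 genes past the threshold did not move by over 1.5 times. The number of the 10 with a difference above 0 in TER119 negative cells was 10, against 5 without the 3 arrays that stood apart and 5 with the hepatocyte covariate. Leaving out each array in turn gave 1 to 1 genes in KO-labelled against WT TER119 positive cells, 0 to 0 in TER119 negative cells, 0 to 0 for the difference between these effects, and 8 to 9 between the fractions in either genotype. Counts over all genes moved more. In TER119 positive cells 203 passed, against 323 without the 3 arrays that stood apart, 350 with only the groups compared and 386 with array weights. In TER119 negative cells 17 passed, against 8 without those arrays, 4 with only the groups compared, 31 with array weights, 7 with sex, 10 with the hepatocyte covariate and 8 to 24 with an array left out. For the difference between these effects it was 87, against 56 without dim genes. Applied to genes chosen after seeing the data, the alternatives kept Cd59b in TER119 positive cells past the threshold in 18 of 18 (1.06 to 1.29) and Cd55 in 16 of 18 (0.69 to 0.92). Aqp1 did not pass in any of 18 (-0.60 to -0.41, lowest adjusted p = 0.0625). Without detection calls, whether low values lie above background is unknown.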
